A study of Mus musculus with 24 samples.

Results

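The 10 genes described here are transcripts of the cells that line blood vessels, measured in tumours of the mouse brain. They were taken by gene symbol, from a list drawn up with earlier results of these data known, and are 10 of the 17097 genes that the arrays represent with a probe set of a single symbol. Of the 10, 4 are genes that brain endothelium uses at its barrier (Cldn5, Slco1a4, Abcb1a and Ly6c1), and 6 are made by endothelium in general (Pecam1, Cdh5, Esam, Eng, Podxl and Kdr). All 10 passed the filter on dim probe sets and were among the 13218 genes tested.

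RNA was measured in 24 tumours cut from mouse brain cortex, each on its own single-colour Affymetrix array, as log2 expression values. The tumours grew from cells that expressed 1 of 3 class genes: RAB3A (6 tumours), BC74C (9 tumours) or ZNF668 (9 tumours). The names RAB3A and ZNF668 are written as human genes, and BC74C is not an approved gene symbol and is kept as the labels spell it. A further label calls 4 tumours HGG, which the labels do not spell out, 11 ependymoma, 5 TUMOR and 4 UNKNOWN. No RAB3A tumour is labelled HGG, 2 BC74C and 2 ZNF668 tumours are, and the ependymoma label is on 2 RAB3A, 6 BC74C and 3 ZNF668 tumours. No tumour-free cortex is among the 24 samples, and the labels give no strain, age, sex, vector or promoter, nor the cells that took up the class gene. They do not say that the tumours came from separate animals, so p-values measure the spread between these samples only. The sample titles carry the prefix mmr for 6 tumours (2 RAB3A, 1 BC74C and 3 ZNF668) and elw for the other 18, and nothing else marks a possible batch.

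Endothelial cells of the brain differ from those of other organs by sealed junctions, few transport vesicles and a dense set of transporters, which together are called the blood-brain barrier. Wnt ligands from neural cells and contact with pericytes induce and maintain these features, whereas vessels of brain tumours often lose some of them under VEGF. In a piece of whole tumour, fewer cells of a type and less RNA per cell cannot be told apart. Each probe set has its own brightness, so levels below are compared between tumours and never between genes.

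The barrier genes were among the more variable transcripts. Cldn5, the main claudin of the tight junctions between brain endothelial cells, averaged a log2 value of 8.40 ± 0.86 (SD, n = 24). Slco1a4, an organic anion transporter of brain capillaries, averaged 7.84 ± 1.10, and Abcb1a, the P-glycoprotein pump that returns drugs to the blood, averaged 6.99 ± 0.85 (SD, n = 24 each). Ly6c1, a surface protein of mouse brain capillary endothelium that some leukocytes also carry, averaged 9.71 ± 0.92 (SD, n = 24). The median SD over all 13218 genes was 0.44 on the same scale, and 83.8% of genes varied less than Cldn5 and 92.1% less than Slco1a4.

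The general endothelial genes other than Pecam1 varied less, and 2 of the 6 were dim. Pecam1, the platelet and endothelial adhesion molecule, averaged a log2 value of 4.56 ± 0.84, and Cdh5, the cadherin of endothelial junctions, averaged 4.29 ± 0.54 (SD, n = 24 each). Both lay below the filter value of 3.76 in 2 tumours each, so their small differences are the least certain. Esam, an endothelial adhesion molecule, averaged 7.28 ± 0.55, Eng, a coreceptor for TGF-beta ligands, 6.82 ± 0.56, Podxl, a sialomucin of the luminal surface that is also made by other cells, 7.28 ± 0.57, and Kdr, the VEGF receptor VEGFR2, 6.79 ± 0.67 (SD, n = 24 each). Second probe sets exist for Abcb1a, Cdh5, Eng and Podxl. That of Abcb1a followed the first with Pearson's r = 0.94 over the 24 tumours and that of Eng with r = 0.63. The second probe sets of Cdh5 and Podxl lay below the filter value in 24 and 23 tumours and followed the first with r = 0.20 and 0.19.

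No difference between class genes passed the test for any of the 10 genes. Cldn5 ranged from 7.97 to 9.16 in RAB3A tumours (median 8.93), from 7.10 to 8.37 in BC74C tumours (median 8.10) and from 5.99 to 10.46 in ZNF668 tumours (median 8.81). The ZNF668 tumours thus held both the lowest and the highest Cldn5 value, and their range covered those of the other class genes. Slco1a4 ranged from 7.69 to 8.73 in RAB3A tumours (median 8.25), from 5.61 to 9.03 in BC74C tumours (median 7.74) and from 5.36 to 9.95 in ZNF668 tumours (median 7.98). RAB3A tumours sat close together, at ranks 5 to 16 of the 24 tumours from the highest down, and the other class genes spread on both sides of them. The plot of the 10 genes by class gene shows the same overlap throughout.

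**Figure D1:**
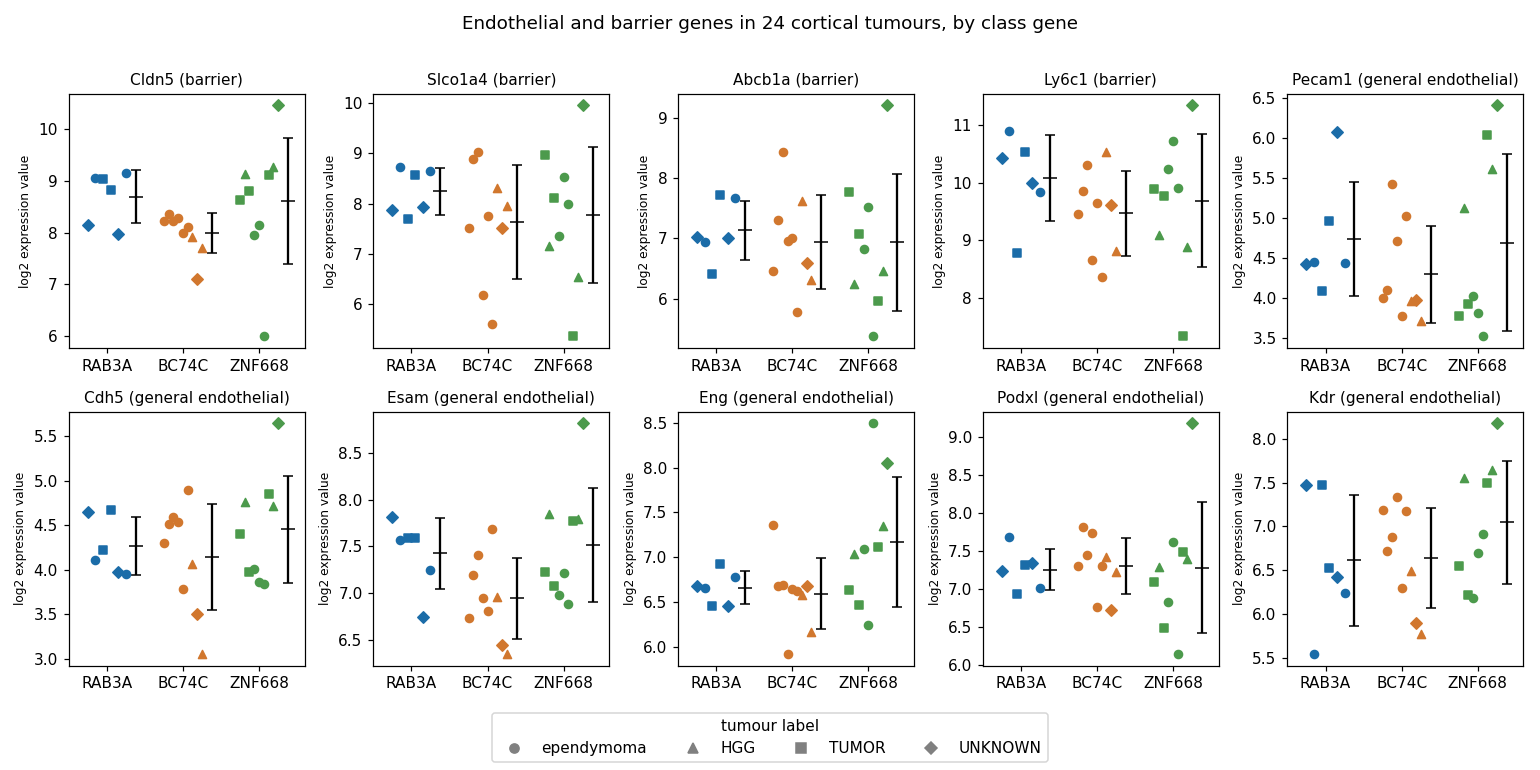
Log2 expression value (y axis) of each of the 10 genes in the 24 tumours, in columns for RAB3A (n = 6), BC74C (n = 9) and ZNF668 (n = 9). Points are tumours, marker shapes give the tumour label, and the black bar beside each column is the mean with its SD. The groups overlap in all 10 panels, and 1 ZNF668 tumour (replicate 9) stands at the top in 9 of them.

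Between RAB3A and ZNF668 tumours limma called 0 of the 10 genes at an adjusted p under 0.05, where it called 0.0757% of all genes tested. At an unadjusted p under 0.05 it also had 0 of the 10, against 9.21% of all genes. The 4 barrier genes were all on the higher side in RAB3A tumours, by 0.08 (Cldn5) to 0.47 (Slco1a4) on the log2 scale, with standard errors of 0.42 to 0.56. Without ZNF668 replicate 6 Cldn5 was at -0.24 and Abcb1a at 0.00, and without ZNF668 replicate 7 Slco1a4 was at 0.17 and Ly6c1 at 0.10. Slco1a4 averaged 8.24 ± 0.46 in RAB3A tumours and 7.77 ± 1.36 in ZNF668 tumours (SD, n = 6 and 9; 95% interval of the difference -0.69 to 1.62, limma adjusted p = 0.737). The general genes lay from -0.51 (Eng) to 0.05 (Pecam1), with 5 of 6 on the lower side. Over all genes the median difference was -0.04 and 43.8% were positive. Eng averaged 6.66 ± 0.18 in RAB3A tumours and 7.17 ± 0.73 in ZNF668 tumours (SD, n = 6 and 9; difference -0.51, 95% interval -1.07 to 0.05, limma adjusted p = 0.545).

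Between BC74C and ZNF668 tumours limma called 0 of the 10 genes, against 0.303% of all genes. The unadjusted p was under 0.05 for 2 of the 10, against 6.88% of all genes. These were Esam, which averaged 6.94 ± 0.43 in BC74C tumours and 7.51 ± 0.61 in ZNF668 tumours (SD, n = 9 each), and Eng, which averaged 6.59 ± 0.39 and 7.17 ± 0.73 in the same order. Esam ranged from 6.34 to 7.68 in BC74C tumours (median 6.94) and from 6.88 to 8.82 in ZNF668 tumours (median 7.23), so the groups overlapped between 6.88 and 7.68. The difference of Esam was -0.57 (95% interval -1.05 to -0.09, limma adjusted p = 0.56) and that of Eng -0.57 (-1.07 to -0.07, adjusted p = 0.59). Within the elw tumours the difference of Esam was -0.18, and within tumours labelled ependymoma it was 0.10. Cldn5 differed by -0.62 (95% interval -1.39 to 0.15, adjusted p = 0.853), but by -0.09 within elw and by 0.83 within tumours labelled ependymoma, where the direction turned. That label is on 6 BC74C and 3 ZNF668 tumours, and Cldn5 in the latter was 7.96, 8.16 and 5.99. The last value, from ZNF668 replicate 6, was the lowest of all tumours, and the fit within the label was not repeated without it. Abcb1a and Podxl differed by 0.00 and 0.02.

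Between RAB3A and BC74C tumours limma called 0 of the 10 genes and 0% of all genes; at an unadjusted p under 0.05 it had 0 of the 10 and 8.21% of all genes. Of the 10 genes 8 were on the higher side in RAB3A tumours, with a median of 0.32 against -0.04 over all genes. Cldn5 averaged 8.70 ± 0.51 in RAB3A tumours and 7.99 ± 0.39 in BC74C tumours (SD, n = 6 and 9), a difference of 0.71 (95% interval -0.15 to 1.57, limma adjusted p = 0.661). Ly6c1 differed by 0.61 and Slco1a4 by 0.60, both with intervals that include 0. The intervals leave room for differences of more than 1 on the log2 scale for each of the 4 barrier genes, so this comparison does not show equal levels. The comparisons of RAB3A and BC74C with ZNF668 share the ZNF668 tumours, and RAB3A minus BC74C follows from the pair.

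Whether the barrier genes differ between class genes at a given level of the general genes was asked by adding the mean of those 6 genes to the fit. None of the 4 barrier genes was then called in any of the 4 comparisons (limma, 0 of 4 also at an unadjusted p under 0.05). In that fit 0.121% of all genes were called for RAB3A minus ZNF668, 0.386% for BC74C minus ZNF668, 0% for RAB3A minus BC74C and 0% for HGG minus ependymoma. The corresponding shares of all genes at an unadjusted p under 0.05 were 10.9%, 7.77%, 8.19% and 1.72%. With the covariate, Cldn5 differed by 0.30 ± 0.34 (SE) between RAB3A and ZNF668, by -0.22 ± 0.32 between BC74C and ZNF668, and by 0.52 ± 0.34 between RAB3A and BC74C. For RAB3A minus ZNF668 Slco1a4 was at 0.45 with it and 0.47 without, Ly6c1 at 0.39 and 0.40, and Abcb1a at 0.31 and 0.19. These 3 genes had r of only -0.26 to 0.34 with Pecam1, Cdh5, Esam or Kdr. The covariate therefore cannot hold the amount of endothelial RNA fixed for them.

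The mean of the 4 barrier genes minus that of the 6 general genes gives each tumour a single value, whose zero has no meaning because the probe sets differ in brightness. It averaged 2.38 ± 0.47 in RAB3A tumours, 2.02 ± 0.71 in BC74C tumours and 1.90 ± 0.97 in ZNF668 tumours (SD, n = 6, 9 and 9), and was not tested. The lowest values were 0.14 in ZNF668 replicate 7 and 0.51 in BC74C replicate 6, and the highest 2.91 in RAB3A replicate 2 and 2.89 in RAB3A replicate 6. RAB3A tumours all lay at 1.86 or above, while BC74C and ZNF668 tumours spread over most of the range. Within elw the differences were 0.11 for RAB3A minus ZNF668, -0.24 for BC74C minus ZNF668 and 0.35 for RAB3A minus BC74C. Leaving out ZNF668 replicate 7 brought the RAB3A minus ZNF668 difference to 0.27, against 0.49 with it, and the BC74C minus ZNF668 difference to -0.09, against 0.13.

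Tumours labelled HGG and ependymoma overlapped for all 10 genes. With the class gene as a covariate limma called 0 of the 10, and 0% of all genes, and at an unadjusted p under 0.05 it had 0 of the 10 against 1.73% of all genes. Slco1a4 was 8.31 and 7.95 in the BC74C tumours labelled HGG and 7.15 and 6.54 in the ZNF668 tumours labelled HGG, and ranged from 5.61 to 9.03 in the 11 tumours labelled ependymoma (median 7.98). Cldn5 was 7.91, 7.70, 9.14 and 9.26 in the same HGG tumours, and 5.99 to 9.16 in ependymoma tumours (median 8.22). All 4 HGG values of Slco1a4 lay within the ependymoma range, and 1 HGG value of Cldn5 lay above it. The differences for HGG minus ependymoma ran from -0.42 (Ly6c1) to 0.60 (Cldn5; 95% interval -0.31 to 1.51), each with a limma adjusted p of 0.9998.

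In those values the HGG tumours of BC74C and of ZNF668 stood on different sides, and the difference of the HGG effect between these class genes was estimated directly from 13 tumours. Pecam1 was 3.96 and 3.71 in BC74C tumours labelled HGG, against 3.78 to 5.43 in the 6 labelled ependymoma (median 4.41). In ZNF668 tumours it was 5.12 and 5.61 with the HGG label, against 4.03, 3.81 and 3.52 with the ependymoma label. The ZNF668 tumours of the labels did not overlap, while in BC74C tumours the HGG values lay in the lower part of the ependymoma range or below it. Cdh5 was 4.06 and 3.05 in BC74C HGG tumours against 3.78 to 4.89 in BC74C ependymoma tumours (median 4.52), and 4.76 and 4.71 in ZNF668 HGG tumours against 4.01, 3.86 and 3.84 in ZNF668 ependymoma tumours. Kdr was 6.495 and 5.77 in BC74C HGG tumours against 6.30 to 7.34 in BC74C ependymoma tumours (median 7.03), and 7.55 and 7.65 in ZNF668 HGG tumours against 6.18, 6.69 and 6.92 in ZNF668 ependymoma tumours. Pecam1, Cdh5 and Kdr thus showed the same arrangement: HGG high and apart from ependymoma in ZNF668, HGG low in BC74C. In ZNF668 Slco1a4 separated the other way, at 7.15 and 6.54 with the HGG label against 7.35, 8.53 and 7.98 with the ependymoma label. Ly6c1 did too, at 9.09 and 8.89 against 10.24, 10.73 and 9.92. With 2 HGG and 3 ependymoma tumours of ZNF668 a gene separates easily. The share of all genes that do so was not counted, so the separation cannot be read as particular to these genes.

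The HGG effect in BC74C minus that in ZNF668 was -2.26 ± 0.59 for Pecam1, -1.71 ± 0.44 for Cdh5, -1.81 ± 0.50 for Kdr, -1.27 ± 0.44 for Esam and -2.23 ± 0.66 for Cldn5 (log2, SE, 13 tumours). These 5 genes had an unadjusted p under 0.05, against 8.16% of all genes. None was called after adjustment, nor was any other gene of the table (limma, 0 of the 10 and 0% of all genes, lowest adjusted p of the 10 genes 0.591). All 6 general genes were on the negative side, whereas Slco1a4 and Ly6c1 were on the positive side, at 1.75 ± 1.19 and 1.60 ± 0.78. Markers of other cells moved with them. The proliferation list was negative for 7 of 7 genes tested (median -2.81), the mature neuron list positive for 9 of 10 (median 2.17) and the pericyte and mural list negative for 8 of 9 (median -0.84). The fibroblast and leptomeningeal list was negative for 5 of 7 (median -1.74). The microglia and macrophage list was positive for 10 of 12 (median 0.92). The part of all these lists in the values of the 10 genes was not tested. Only 2 HGG tumours of each class gene carry this contrast: 1 of each pair has an mmr title, and leaving out ZNF668 replicate 6 brought Cldn5 to -1.54, and leaving out BC74C replicate 7 brought Ly6c1 to 0.73.

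**Figure D2:**
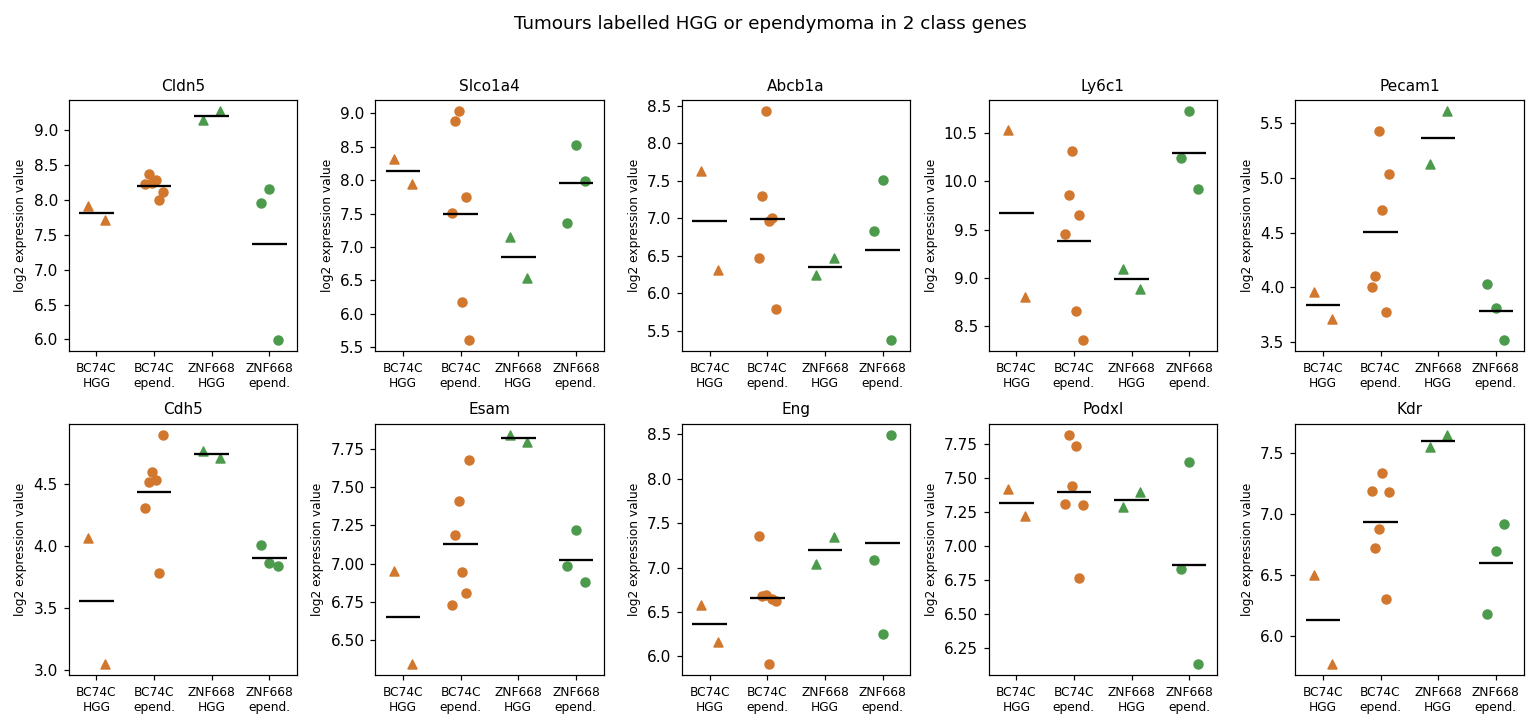
Log2 expression value (y axis) of each of the 10 genes in BC74C tumours labelled HGG (n = 2) or ependymoma (n = 6) and ZNF668 tumours labelled HGG (n = 2) or ependymoma (n = 3). Points are tumours and lines are means. For Pecam1, Cdh5, Kdr, Esam and Cldn5 the ZNF668 HGG tumours lie above the ZNF668 ependymoma tumours, and the BC74C HGG mean lies below the BC74C ependymoma mean. For Slco1a4 and Ly6c1 the ZNF668 HGG tumours lie below the ZNF668 ependymoma tumours.

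Across the 24 tumours the genes did not vary as barrier genes on one side and general genes on the other. Slco1a4, Abcb1a and Ly6c1 varied together, Pecam1, Cdh5, Esam and Kdr varied together, and Cldn5 passed with 4 of the 6 general genes (Esam, Cdh5, Podxl and Pecam1), of which Esam alone passed without ZNF668 replicate 9. Of the 45 pairs, 18 had a Pearson correlation with an adjusted permutation p under 0.05, all positive, and 14 a Spearman correlation (100000 permutations, adjusted over the 45 pairs). The 9 pairs of Eng, by its brighter probe set, with the other genes included none of them, with r from -0.08 to 0.40. The second Eng probe set was highest in ZNF668 replicate 9 (7.83) and lowest in BC74C replicate 9 (5.10). Its relations with the other genes are not given here. Many other genes were as closely related. Among 13217 genes ranked by r, Slco1a4 was number 230 and Ly6c1 number 610 for Abcb1a, and Abcb1a was number 838 for Ly6c1, while Ly6c1 was number 4 for Slco1a4. Within Pecam1, Cdh5, Esam and Kdr the ranks ran from 2 (Esam for Cdh5) to 196 (Kdr for Pecam1).

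Slco1a4 and Ly6c1 had Pearson's r = 0.85 (permutation p = 1e-05, the smallest these permutations can give, adjusted 0.00015) and Spearman's rho = 0.75 (p = 8e-05, adjusted 0.000675). Slco1a4 and Abcb1a had r = 0.75 (permutation p = 3e-05, adjusted 0.000337) and rho = 0.78 (p = 2e-05, adjusted 0.0003). Abcb1a and Ly6c1 had r = 0.69 (permutation p = 0.0003, adjusted 0.00169) and rho = 0.68 (p = 0.0004, adjusted 0.00257). All 3 relations stayed positive in each division of the tumours: r was 0.70 to 0.75 without the 2 tumours farthest from the median, 0.56 to 0.78 within elw, 0.88 to 0.94 within mmr, and 0.49 to 0.91 within the class genes.

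Cdh5 and Esam had r = 0.87 (permutation p = 1e-05, adjusted 0.00015) and rho = 0.81 (p = 1e-05, adjusted 0.0003). Cdh5 and Kdr had r = 0.79 (permutation p = 1e-05, adjusted 0.00015) and rho = 0.76 (p = 4e-05, adjusted 0.00045). The 6 pairs among Pecam1, Cdh5, Esam and Kdr had r from 0.54 to 0.87 with adjusted permutation p of at most 0.018, and r from 0.52 to 0.77 without the 2 farthest tumours. Within elw they had 0.33 to 0.77, within mmr 0.69 to 0.97, within BC74C 0.63 to 0.91 and within ZNF668 0.87 to 0.97. Within the 6 RAB3A tumours they did not hold together: r ran from -0.81 (Pecam1 with Esam) to 0.71 (Cdh5 with Esam). RAB3A replicate 5 had the second highest Pecam1 of all tumours, 6.08, beside an Esam of 6.74, the lowest of its class gene.

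These sets were drawn from the same correlations, with Cldn5, Podxl and Eng left out, so their separation is described and not tested. Podxl passed with Abcb1a (r = 0.59, adjusted permutation p = 0.0109) and also with Pecam1, Cdh5 and Esam. Cldn5 passed with Abcb1a (r = 0.49, adjusted permutation p = 0.0451) and also with Esam. No pair between the sets so chosen passed over the 24 tumours. The 12 pairs of Slco1a4, Abcb1a or Ly6c1 with Pecam1, Cdh5, Esam or Kdr had r from -0.26 to 0.34 (lowest adjusted permutation p = 0.207). ZNF668 replicate 9, highest for 9 of the 10 genes, pulled these values up. Without it r ran from -0.54 to 0.03, and Slco1a4 and Kdr had r = -0.54 (permutation p = 0.00775, adjusted 0.0387). The number of pairs that passed was then 9, 8 of them positive, in place of 18. The 3 pairs of Slco1a4, Abcb1a and Ly6c1 passed without this tumour too (r 0.62 to 0.82), and so did 4 of the 6 pairs of Pecam1, Cdh5, Esam and Kdr. This alternative was chosen after the values were seen.

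**Figure D3:**
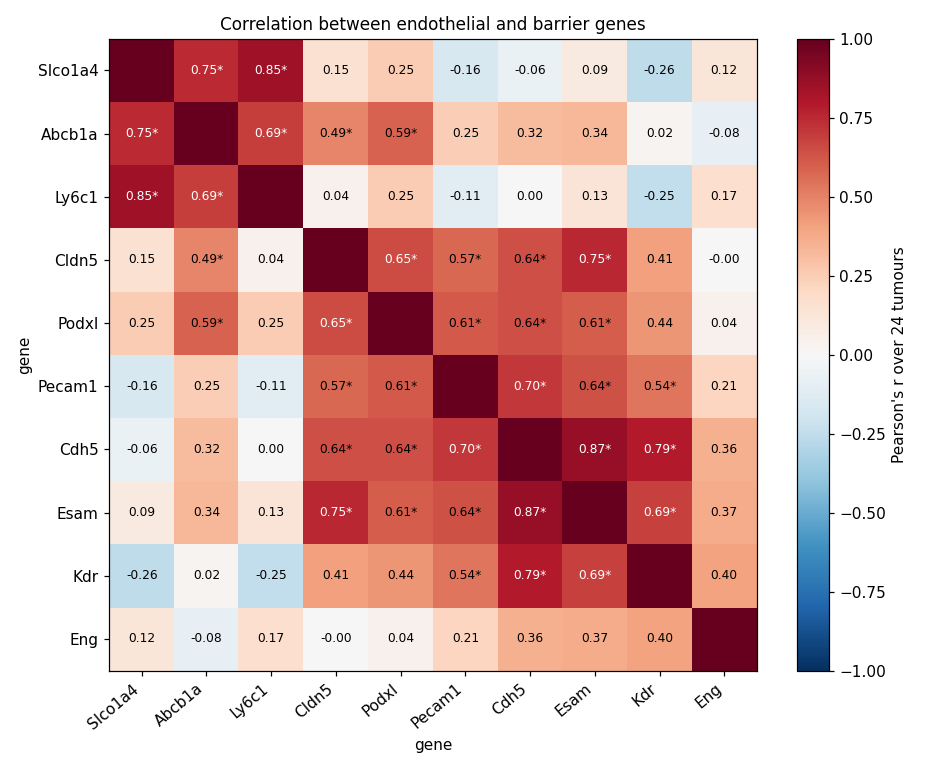
Pearson's r between the 10 genes over 24 tumours, with genes on both axes and colour from -1 to 1; an asterisk marks an adjusted permutation p under 0.05 over the 45 pairs. Slco1a4, Abcb1a and Ly6c1 form one block (r 0.69 to 0.85), Pecam1, Cdh5, Esam and Kdr another (r 0.54 to 0.87), Cldn5 and Podxl lie mostly with the second, and Eng with neither. The blocks were drawn from these same values, and Eng is shown by its brighter probe set.

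Cldn5 and Slco1a4, both barrier genes, had r = 0.15 (permutation p = 0.483, adjusted 0.639) and rho = 0.13, and Cldn5 and Ly6c1 had r = 0.04 (permutation p = 0.844, adjusted 0.904). Cldn5 and Esam had r = 0.75 (permutation p = 5e-05, adjusted 0.000375) and rho = 0.74 (p = 9e-05, adjusted 0.000675), and 0.73 without the 2 farthest tumours. Cldn5 also passed with Cdh5 (r = 0.64, adjusted permutation p = 0.00462) and Pecam1 (r = 0.57, adjusted 0.00874). Its relation with Abcb1a (r = 0.49, adjusted permutation p = 0.0451) rested on the extreme tumours, since r was -0.03 without the 2 farthest. Without ZNF668 replicate 9 the relation with Esam alone of these remained past the threshold (r = 0.65, adjusted permutation p = 0.00567). Podxl had r = 0.59 with Abcb1a and 0.61 to 0.64 with Pecam1, Cdh5 and Esam, and 0.33 and 0.32 to 0.44 without that tumour.

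Single tumours differed in the balance of these genes. ZNF668 replicate 7 had the lowest Slco1a4 (5.36) and Ly6c1 (7.33) of the 24 tumours, but only 2 tumours had a higher Pecam1 (6.05 here) or Cdh5 (4.85), and 4 a higher Cldn5 (9.11). BC74C replicate 6 ranked second lowest for Slco1a4 (5.61), Abcb1a (5.79) and Ly6c1 (8.36), and second highest for Cdh5 (4.89). BC74C replicate 9 went the other way: it was lowest for Cdh5 (3.05) and Esam (6.34) with a middling Slco1a4 of 7.95. ZNF668 replicate 6 was lowest for Cldn5 (5.99), Abcb1a (5.38), Pecam1 (3.52) and Podxl (6.14), with Slco1a4 at 7.98 and Ly6c1 at 9.92. It was highest for Eng (8.49) by the brighter probe set, while the second Eng probe set was highest in ZNF668 replicate 9 (7.83). In ZNF668 replicate 9, Slco1a4 was 9.95, Cldn5 10.46, Cdh5 5.64 and Esam 8.82, and it was highest for 11 of 20 other barrier genes tested and for 12 of 21 other endothelial genes. Its mature oligodendrocyte list mean, 11.22, was also the highest of the 24 tumours, and its astrocyte list mean, 7.66, the lowest (the next was 9.22), with 6 of 7 astrocyte genes at their lowest. The part of these cells in its endothelial values was not tested.

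**Figure D4:**
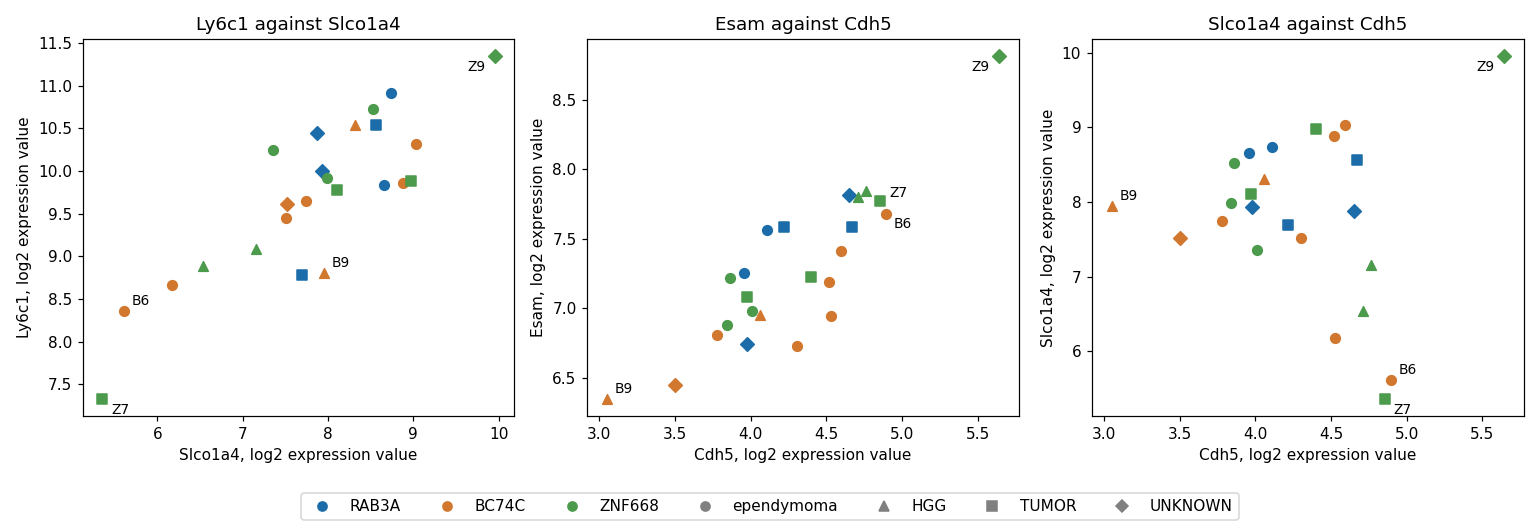
Tumours as points, coloured by class gene and shaped by label, with log2 expression values on both axes: Ly6c1 against Slco1a4, Esam against Cdh5, and Slco1a4 against Cdh5. Z9 and Z7 are ZNF668 replicates 9 and 7, and B6 and B9 are BC74C replicates 6 and 9. The first pair of genes rises together (r = 0.85), as does the second (r = 0.87), and the third does not (r = -0.06).

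The sequence before the start of a gene is shown for the 3 genes that varied together and for Cldn5, which did not go with them. The windows are the 250 bases upstream of the annotated start, from RefSeq on build GRCm38.p6: Slco1a4 at chr6:141856221-141856470 (minus strand), Abcb1a at chr5:8566841-8567090 (plus strand), Ly6c1 at chr15:75048838-75049087 (minus strand) and Cldn5 at chr16:18776597-18776846 (plus strand). Capitals mark matches on either strand. The letters searched were AGGAAG, the core of many ETS factor sites, which reads CTTCCT on the other strand. Further searches were for CTTTGA, as in TCF/LEF sites, which reads TCAAAG on the other strand, and for ACAAAG, as in SOX sites, which reads CTTTGT there. The last search was for GATAAG, as in GATA sites, which reads CTTATC there. The matches shown do not overlap each other.
Slco1a4: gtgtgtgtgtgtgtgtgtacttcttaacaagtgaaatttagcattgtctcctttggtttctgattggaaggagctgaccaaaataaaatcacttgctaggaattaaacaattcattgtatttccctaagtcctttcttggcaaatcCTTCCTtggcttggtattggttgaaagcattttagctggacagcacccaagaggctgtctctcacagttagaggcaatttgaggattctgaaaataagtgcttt
Abcb1a: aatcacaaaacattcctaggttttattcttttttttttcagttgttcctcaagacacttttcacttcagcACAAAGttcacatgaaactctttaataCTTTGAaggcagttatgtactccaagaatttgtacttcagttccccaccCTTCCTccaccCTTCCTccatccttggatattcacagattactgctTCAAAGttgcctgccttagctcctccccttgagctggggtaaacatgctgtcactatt
Ly6c1: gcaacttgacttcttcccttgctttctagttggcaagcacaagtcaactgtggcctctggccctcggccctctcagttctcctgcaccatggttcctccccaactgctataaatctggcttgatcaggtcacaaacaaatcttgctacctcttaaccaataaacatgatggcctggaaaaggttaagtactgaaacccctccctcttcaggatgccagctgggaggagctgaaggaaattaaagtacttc
Cldn5: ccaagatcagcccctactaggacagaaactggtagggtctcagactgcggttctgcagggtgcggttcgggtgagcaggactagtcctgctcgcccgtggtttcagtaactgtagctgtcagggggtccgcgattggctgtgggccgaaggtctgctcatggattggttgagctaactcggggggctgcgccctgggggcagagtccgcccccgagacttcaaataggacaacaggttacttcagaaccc

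AGGAAG or its reverse occurred once in the Slco1a4 window, 104 bases before the start, and at 104 and 93 bases before the start of Abcb1a. It is common, being in 29.5% of 32851 promoter windows of the same length. The Eng window, which is not printed, held it at 6 and 52 bases before the start, and held ACAAAG at 67. CTTTGA stood in the Abcb1a window at 153 and 58 bases before the start and ACAAAG at 180 (13.8% and 16.5% of all windows). The Ly6c1 and Cldn5 windows printed held none of the 4 motifs, and a second annotated Ly6c1 window held AGGAAG and ACAAAG as well. AGGAAG was thus in a window of 4 of the 6 genes covered, and not only of those that varied together. The GATA motif was in none of the windows of the 6 genes that the table covers (Eng, Abcb1a, Kdr, Slco1a4, Ly6c1 and Cldn5), against 6.55% of all. GC content was 39.2% for Slco1a4, 40.4% for Abcb1a, 48.4% for Ly6c1 and 59.6% for Cldn5. A match describes letters only, and its absence says only that these letters are not in this window.

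Other genes of the vessel wall were set against Slco1a4 and Cdh5, taken after the values were seen as the representatives of the blocks (152 relations, adjusted together). Cdh5 had a positive relation that passed with 14 of 21 other endothelial genes, among them Adgrl4 (r = 0.88, rho = 0.90, adjusted permutation p = 0.000507 and 0.00076), Robo4 (r = 0.78), Emcn (r = 0.75) and Vwf (r = 0.75). Slco1a4 passed with 2 of the same 21: Tek, the angiopoietin receptor (r = 0.72, adjusted permutation p = 0.000935), and Ptprb, the phosphatase that acts on it (r = 0.58, adjusted 0.0189). Both genes of that receptor pair were thus related to Slco1a4 over the 24 tumours, while Cdh5 passed with Ptprb alone (r = 0.58, rho = 0.21). ZNF668 replicate 9, the highest for Slco1a4 and Cdh5, was also highest for Tek (8.38, median 5.72) and Ptprb (9.12, median 7.14). These relations may therefore rest in part on that tumour. These are counts over tumours, and the difference between the anchors was not tested.

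Of 20 other barrier and transport genes, 4 passed with Slco1a4 and 6 with Cdh5, and they were different genes. With Slco1a4 these were Slco1c1, a thyroid hormone and organic anion transporter (r = 0.78, rho = 0.53, adjusted permutation p = 0.000507 and 0.045), Slc22a8, another organic anion transporter (r = 0.63), Spock2 (r = 0.74) and Sox17, an endothelial transcription factor (r = 0.64). With Cdh5 they were Foxf2 and Foxq1, forkhead factors of brain endothelium (r = 0.81 and 0.71), Cgnl1 and Lsr, proteins of cell junctions (r = 0.74 and 0.69), Slc2a1, the glucose transporter (r = 0.59), and Apcdd1, a Wnt-induced gene (r = 0.53). By Spearman's rho the 4 relations with Slco1a4 passed too, and of the 6 with Cdh5 those of Slc2a1, Lsr and Apcdd1 did not. Within elw r was 0.63 for Slco1c1 with Slco1a4 and 0.58 for Foxf2 with Cdh5, and within mmr 0.97 and 0.96. Slco1c1 ranged from 7.55 in BC74C replicate 6 to 10.79 in ZNF668 replicate 9, and Foxf2 from 3.54 in BC74C replicate 9 to 5.69 in ZNF668 replicate 9. The tight junction genes Ocln, Tjp1 and Cldn12 of the same list passed with neither.

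Of 11 genes of barrier leak and vessel activation, 2 passed with a negative relation to Slco1a4, and 4 of the 11 had a positive r (median r -0.22). Of 15 vessel ligands and Wnt signalling genes 2 passed, also negative, and 4 had a positive r (median r -0.21). Dll4, the Notch ligand of tip cells, had r = -0.75 with it (rho = -0.62, adjusted permutation p = 0.000507 and 0.011), and Esm1, another tip cell gene, r = -0.62 (rho = -0.51, adjusted permutation p = 0.0113 and 0.057). Vegfa, the ligand of Kdr, had r = -0.68 (rho = -0.61, adjusted permutation p = 0.00346 and 0.011) and Wnt7a, a ligand that induces the barrier, r = -0.58 (adjusted 0.0164). Vegfa was highest in BC74C replicate 6 (10.44) and lowest in ZNF668 replicate 9 (7.17), the tumours with the second lowest and the highest Slco1a4. Of the 11 genes of barrier leak and vessel activation tested, 0 passed with Cdh5 by Pearson's r, but Dll4 (r = 0.51, rho = 0.59, adjusted permutation p = 0.0524 and 0.0198) and Esm1 (r = 0.50, rho = 0.56, adjusted 0.0593 and 0.0271) passed by Spearman's rho, with a positive sign. Within elw and mmr the relation of Slco1a4 with Dll4 was -0.76 and -0.77, and that with Vegfa -0.49 and -0.93. Without the 2 farthest tumours the relation of Slco1a4 with Esm1 was -0.18, with Vegfa -0.40 and with Dll4 -0.52, so that with Esm1 rests on those tumours.

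Markers of other cells passed with different genes of the 10. The mean of the mature neuron list was positively related to Ly6c1 (r = 0.76, permutation p = 5e-05, adjusted over 70 relations 0.00117; rho = 0.71), Abcb1a (r = 0.57, adjusted 0.0262) and Slco1a4 (r = 0.54, adjusted 0.0391; rho = 0.42, adjusted 0.144). The proliferation list ran opposite to the same genes, with r = -0.74 for Ly6c1 (permutation p = 3e-05, adjusted 0.00105; rho = -0.73), -0.69 for Slco1a4 (adjusted 0.00245) and -0.67 for Abcb1a (adjusted 0.00397). Within elw the proliferation relations were -0.76, -0.63 and -0.66 in that order of genes, and within mmr -0.76, -0.89 and -0.88. Without the 2 farthest tumours the relation of Slco1a4 with the neuron list was 0.26. The other 7 genes had r from -0.32 to 0.12 with the neuron list and from -0.20 to 0.28 with the proliferation list, and none passed. The part of neuronal or dividing cells in these relations was not tested beyond the values that follow.

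With the neuron list mean taken out of every gene by linear regression, Slco1a4, Abcb1a and Ly6c1 had r from 0.48 to 0.80 among themselves, and 3 of 3 pairs passed. With the proliferation list mean taken out, r ran from 0.38 to 0.69 and 2 of 3 passed. The pairs of Pecam1, Cdh5, Esam and Kdr passed 6 of 6 times in both cases. Of the 12 pairs between the blocks 2 passed with the neuron list taken out and 1 with the proliferation list taken out, each positive. These alternatives were added after the values were seen.

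The pericyte and mural list, genes of the contractile cells that wrap capillaries, passed with 4 of the 6 general genes and with Cldn5. It had r = 0.76 with Cdh5 (permutation p = 2e-05, adjusted over 70 relations 0.00105; rho = 0.78), 0.70 with Kdr, 0.65 with Esam, 0.60 with Cldn5 and 0.59 with Pecam1, all with adjusted permutation p of at most 0.0215. Podxl (r = 0.42, adjusted permutation p = 0.163) and Eng (r = 0.20, adjusted 0.593) did not pass. For the genes that passed, r within elw was 0.76, 0.62, 0.49, 0.43 and 0.66 in that order, and within mmr 0.85, 0.83, 0.88, 0.87 and 0.53. Within BC74C it was 0.56 to 0.84 and within ZNF668 0.78 to 0.90. Within the 6 RAB3A tumours it was weaker, at 0.26, 0.32, 0.22 and 0.51, and negative for Pecam1 (-0.33). With Slco1a4 the list had r = -0.34 and with Ly6c1 -0.42, neither of which passed. Single pericyte genes that passed with Cdh5 were Rgs5 (r = 0.80), Kcnj8 (0.79), Higd1b (0.71) and Pdgfrb (0.64), and Vtn was the one that passed with Slco1a4 (r = 0.60). With the pericyte list mean taken out, 2 of the 6 pairs of Pecam1, Cdh5, Esam and Kdr passed and 3 of 3 of the other block. Of the 12 pairs between the blocks 2 then passed, both positive (Ly6c1 with Cdh5, r = 0.54, and with Esam, r = 0.58), and their median r was 0.31. The part of pericyte RNA in these relations was not tested further.

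Of the other lists set against the 10 genes, the red blood cell list, of which 2 genes were tested, passed with Ly6c1 (r = 0.55, adjusted permutation p = 0.0352) and no other gene. The fibroblast, microglia and macrophage, and ependymal and choroid plexus lists passed with 0 of 10 genes each by Pearson's r, with r between -0.47 (Cldn5 with microglia and macrophage) and 0.41 (Pecam1 with fibroblast). By Spearman's rho Esam passed with the microglia and macrophage list (rho = -0.58, adjusted permutation p = 0.0201) and Abcb1a with the ependymal and choroid plexus list (rho = 0.58, adjusted 0.0199). Ly6c1 is also made by some leukocytes, and its r with the microglia and macrophage list was 0.20.

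**Figure D5:**
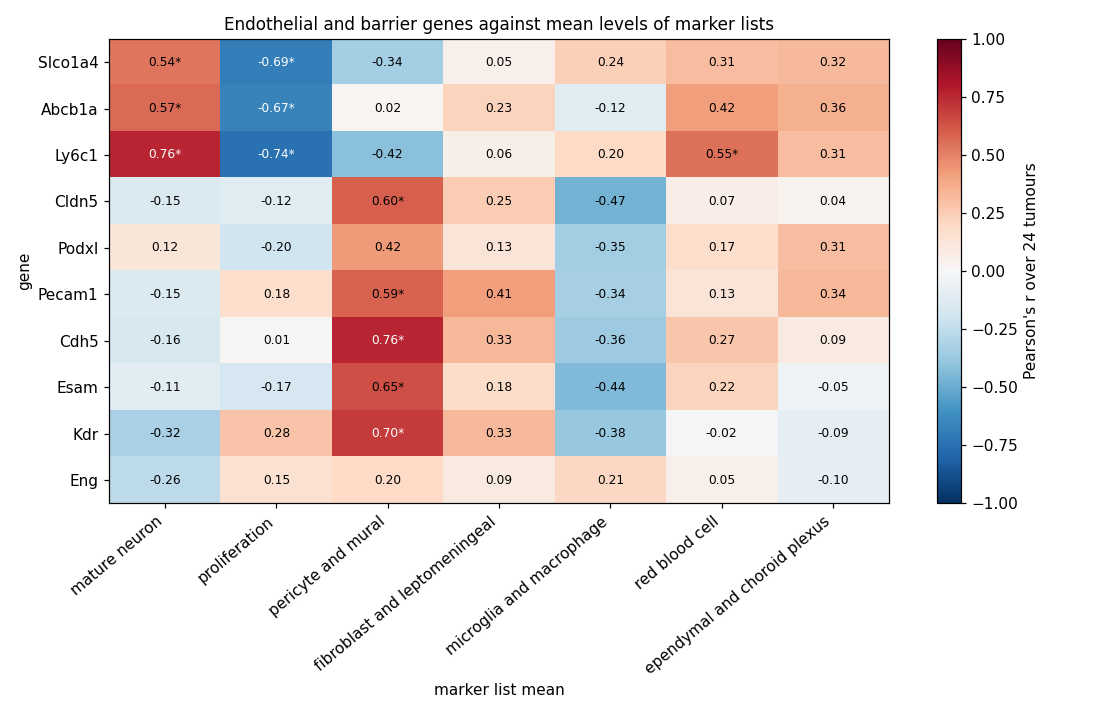
Pearson's r over 24 tumours between each of the 10 genes (rows) and the mean log2 value of 7 marker lists (columns); an asterisk marks an adjusted permutation p under 0.05 over 70 relations. Slco1a4, Abcb1a and Ly6c1 are positive with the mature neuron list and negative with the proliferation list, and Cldn5, Pecam1, Cdh5, Esam and Kdr are positive with the pericyte and mural list.

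The transcripts most like each gene over the 24 tumours, with Pearson's r as the measure, were also different between the blocks. For Cldn5 they were Erg (0.81), Apcdd1 (0.78) and Egfl7 (0.74), for Cdh5 Adgrl4 (0.88), Foxf2 (0.81) and Rgs5 (0.80), and for Esam Adgrl4 (0.90), Egfl7 (0.89) and Rgs5 (0.88). Genes of the vessel wall lead these 3 lists. For Slco1a4 they were Smim1 (0.87), Ccndbp1 (0.87) and Degs2 (0.86), for Abcb1a Morf4l1 (0.87), Cert1 (0.85) and Ehbp1l1 (0.85), and for Ly6c1 Tango2 (0.91), Rasgrf2 (0.86) and Thy1 (0.86), the last a surface protein of neurons and T cells. Pecam1 was closest to Mmp9 (0.80), Icam2 (0.79) and Denr (0.76), Kdr to Pelp1 (0.90), Sart1 (0.83) and Kcnj8 (0.79), Eng to Rhbdd3 (0.82), Vsig2 (0.81) and Slc38a7 (0.77), and Podxl to Pth2 (0.78), Grrp1 (0.77) and Bvht (0.75). Without ZNF668 replicate 9 the values of Podxl were 0.47, 0.59 and 0.51.

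No gene of the vessel lists was called between class genes or labels. Of 20 other barrier and transport genes tested, 2 had an unadjusted limma p under 0.05 for BC74C minus ZNF668, where 6.88% of all genes did. On the lower side were 18 (median -0.28 against 0.00 over all genes, of which 51.2% were positive). Ocln, a tight junction protein, was the nearest to a call at -1.01 ± 0.24 (SE, limma adjusted p = 0.078). Of 21 other endothelial genes 18 were on the lower side in the same comparison (median -0.41), and 5 had an unadjusted p under 0.05 against the same 6.88% of all genes, with Cd34 at -0.54 and Sox18 at -0.82. The mean of this list was 6.88, 6.89 and 7.46 in the ZNF668 tumours with an mmr title. In the ZNF668 tumours with an elw title it ranged from 5.96 to 6.62, and in all BC74C tumours from 5.74 to 6.69. For RAB3A minus ZNF668 the barrier leak list was lower for 8 of 11 genes (median -0.22), and Plvap, the diaphragm protein of leaky vessels, differed by -1.06 ± 0.31 (SE, limma adjusted p = 0.40). Vegfc differed by -1.83 ± 0.46 in that comparison (limma adjusted p = 0.221) and Wnt7a by -1.17 ± 0.43 (adjusted p = 0.479). For HGG minus ependymoma 11 of 11 barrier leak genes were on the higher side with a median of 0.15, where 50.2% of all genes were. Of the 11, 0 had an unadjusted p under 0.05. The class genes differed in direction: the mean of this list was higher in HGG than in ependymoma tumours of ZNF668, but lower in those of BC74C. The HGG effect in BC74C minus that in ZNF668 was negative for 9 of the 11 genes (median -0.62).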

How the data were processed

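The arrays were single-colour Affymetrix arrays hybridised with biotin-labelled RNA isolated with Trizol, per the labels' protocols. The authors deposited log2 expression values of 45141 probe sets in each of 24 tumours. Partek 6.6 was used, per the submitters' processing notes; background correction, normalization and summarisation are not given in the sources used here. Signal over background was not assessed, and the number of arrays limits the precision.

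Where a gene had several probe sets, the brightest on average was taken among those with 1 symbol. Genes with a mean under 3.76, the 30th percentile over probe sets, were dropped, which left 13218 of 17097. Names come from the platform annotation. Comparisons used limma 3.58.1 in R 4.3.3 (lmFit, eBayes with an intensity trend, two-sided, Benjamini-Hochberg over 13218 genes, threshold 0.05). Class genes were compared in a fit of all 24 tumours, and labels in the 15 labelled HGG or ependymoma with the class gene as covariate. Intervals are 95% from the moderated fit. Correlations used 100000 permutations in numpy 2.4.6. Figures were drawn with matplotlib 3.10.9.

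The 10 genes and 14 further lists (163 genes, 138 tested) were chosen with earlier results of these data known. The text names every one of the 10, from each list any gene called and otherwise genes among the 2 highest and 2 lowest moderated t values in a comparison, and the 3 most correlated transcripts of each, passing over names of predicted genes and clones; genes named for their relation to Slco1a4 or Cdh5 were chosen after their values were seen. On simulated data with 200 changed genes the fit recovered 54% of changes of 1 and 90% of changes of 2 (log2) for RAB3A minus ZNF668, 60% and 92% for BC74C minus ZNF668, 53% and 90% for RAB3A minus BC74C, and 40% and 78% for HGG minus ependymoma. The changed genes were drawn at random from all genes tested, whose median SD was 0.44. The barrier genes had SDs of 0.85 to 1.10, so these shares do not hold for them, and their own recovery was not simulated.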

Additional observations from a re-analysis of the deposited data

Results flagged for a closer look

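In 60 groups of tumours (10 genes by 6 groups) a value stood far from the rest of its group 7 times, where chance gives about 1 in 20 groups. The groups share tumours and several of the genes vary together, so they are not separate trials. All 7 values came from ZNF668 replicate 9 or BC74C replicate 7. ZNF668 replicate 9 was far above the other tumours labelled UNKNOWN for Slco1a4 (9.95, the next 7.93), Abcb1a (9.20, the next 7.03) and Eng (8.05, the next 6.68). It was also far above the other ZNF668 tumours for Esam (8.82, the next 7.84) and Podxl (9.19, the next 7.62). BC74C replicate 7 was far above the other tumours labelled HGG for Abcb1a (7.63, the next 6.47) and Ly6c1 (10.54, the next 9.09).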

How the results depend on the processing

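None of the 10 genes was called in any fit, with a lowest adjusted p of 0.246 (limma, Cldn5, BC74C minus ZNF668 without ZNF668 replicate 6). Of 542 differences under named alternatives 61 changed sign, and of 1000 with a tumour left out 70. The barrier minus general difference, which was not tested, was -0.24 to 0.34 for BC74C minus ZNF668 under the other alternatives, so its sign changed. With a tumour left out the difference was 0.27 to 0.61 for RAB3A minus ZNF668, -0.09 to 0.32 for BC74C minus ZNF668, 0.17 to 0.46 for RAB3A minus BC74C and -0.56 to -0.01 for HGG minus ependymoma. Counts over the whole table depended most on the setting. For RAB3A minus ZNF668 limma called 10 genes, 21 within elw, 0 within mmr, 0 with 2 class genes in the fit, 0 within ependymoma, 0 with the label as covariate, 6 without the filter, 21 with array weights, 0 with the neuron list as covariate, and 0 to 40 with a tumour left out. For BC74C minus ZNF668 it called 40, 0 within mmr, 0 within ependymoma, 20 with the label as covariate, 23 with a filter at the 50th percentile, 130 with array weights and 25 to 63 with a tumour left out. For RAB3A minus BC74C it called 0, 2 with the title prefix as a block, 1 without the filter, 2 with the stricter filter, 2 with the mean of all probe sets, 2 without the intensity trend, 4 with the neuron list as covariate and 0 to 4 with a tumour left out. The difference of the HGG effect had 0 to 2. Correlations between the 10 genes passed 18 times, and 9 times without ZNF668 replicate 9, an alternative chosen after seeing the data. The cause was not tested. No paired analysis was possible because replicate numbers follow the order of deposit and pair no tumours.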
